A study of Homo sapiens with 24 samples.

Results

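The interaction of ITE and oxygen was measured in RCC4+VHL cells as the departure of the combined treatment from additivity. For each gene and replicate number, the log2 difference between hypoxia + ITE and hypoxia + DMSO was taken, and the log2 difference between normoxia + ITE and normoxia + DMSO was subtracted from it. A value of 0 means that ITE altered the gene by the same factor at both oxygen levels, a negative value (below additivity) that ITE left less transcript in hypoxia than that factor predicts, and a positive value (above additivity) that it left more. All genes with 10 or more counts in at least 6 of the 24 libraries were included, 12497 of the 23106 gene symbols counted, whatever their response to either single treatment. The list of common targets described below had been picked by the study on both single treatments.

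RCC4+VHL is a clone of the RCC4 renal carcinoma line in which VHL was restored by stable transfection, so that HIF is again controlled by oxygen, and all 4 groups carry this change. The 4 groups, with 6 replicates in each, crossed oxygen (normoxia or hypoxia) with treatment (ITE or its vehicle DMSO), and polyadenylated RNA was sequenced. ITE was given at 100 nM and DMSO at 0.1% for 6 h, at 21% oxygen in normoxia and 0.5% oxygen in hypoxia. Every group was held before treatment in medium without phenol red and with charcoal-treated serum, which lowers hormones and other small lipophilic molecules.

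In background, hypoxia stops the prolyl hydroxylases that mark HIF-α subunits for destruction by VHL, and the stabilised subunits pair with HIF-1β/ARNT at hypoxia response elements. ITE is an indole ligand of AHR, which on binding a ligand also pairs with HIF-1β/ARNT and acts at xenobiotic response elements. The comparison here addresses how a gene's response to ITE differs with oxygen when both factors draw on that partner.

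The line carried its markers: PAX8, a transcription factor of the kidney epithelium, lay between 191 and 470 CPM (counts scaled to the size of the library) in the 24 libraries, VIM between 1940 and 2660, and VHL between 147 and 693. CA12 went against its place on the marker list, with a median of 0 CPM. Total counts per library ran from 770094 (hypoxia + DMSO replicate 2) to 93851342 (normoxia + DMSO replicate 3), and hypoxia + ITE replicate 1 held 1357702. Of the 12497 genes, 9.54% had no count in the first and 6.63% in the last, and at most 2.21% in any other library. Hypoxia + ITE replicate 6 stood apart in composition. Its deviations from the mean of its group, which includes it, had a rank correlation of 0.64 with GC content across genes. The other libraries of hypoxia + ITE, set against the same mean, had −0.42 to −0.22. Libraries of the other groups had −0.21 to 0.15. The main results are therefore given also without replicate 6 of all 4 groups.

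The promoters of 4 genes that recur below are printed first. They show the response-element cores of the genes with low values beside that of a gene with high values in every replicate number. Each sequence was taken from RefSeq (GRCh38.p14), reads 5′ to 3′ on the strand of the gene and spans 250 bases before the transcription start to 50 after it. Capitals mark matches on either strand to the core of the xenobiotic response element, GCGTG, and to that of the hypoxia response element, which is ACGTG. The searches were independent, and overlapping matches were allowed. WSB1 (chr17:27293864-27294163, plus strand) encodes a substrate adaptor of a ubiquitin ligase. PGK1 (chrX:78103998-78104297, plus strand) encodes the glycolytic enzyme phosphoglycerate kinase. TIPARP (chr3:156674340-156674639, plus strand) encodes a mono-ADP-ribosyltransferase that represses AHR, and the promoter shown is the only 1 of 3 listed that holds either core. LYSMD1 (chr1:151165853-151166152, minus strand) encodes a protein with a LysM domain.
WSB1: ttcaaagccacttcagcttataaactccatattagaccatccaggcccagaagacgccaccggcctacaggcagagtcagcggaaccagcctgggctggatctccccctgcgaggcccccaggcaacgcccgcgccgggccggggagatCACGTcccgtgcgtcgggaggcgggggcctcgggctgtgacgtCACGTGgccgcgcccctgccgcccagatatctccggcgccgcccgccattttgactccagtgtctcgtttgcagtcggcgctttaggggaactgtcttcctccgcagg
PGK1: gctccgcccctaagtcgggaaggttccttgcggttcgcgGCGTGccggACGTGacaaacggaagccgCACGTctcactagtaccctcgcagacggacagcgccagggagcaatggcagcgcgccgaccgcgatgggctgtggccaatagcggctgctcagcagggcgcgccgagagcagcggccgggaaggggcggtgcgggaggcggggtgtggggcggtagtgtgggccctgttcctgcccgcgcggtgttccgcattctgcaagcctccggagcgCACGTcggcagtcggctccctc
TIPARP: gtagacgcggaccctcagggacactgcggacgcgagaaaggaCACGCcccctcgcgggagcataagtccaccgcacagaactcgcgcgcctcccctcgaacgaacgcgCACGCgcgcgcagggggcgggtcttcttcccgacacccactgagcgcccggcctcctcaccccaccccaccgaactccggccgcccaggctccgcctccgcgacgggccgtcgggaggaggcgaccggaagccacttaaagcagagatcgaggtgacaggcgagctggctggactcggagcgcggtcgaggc
LYSMD1: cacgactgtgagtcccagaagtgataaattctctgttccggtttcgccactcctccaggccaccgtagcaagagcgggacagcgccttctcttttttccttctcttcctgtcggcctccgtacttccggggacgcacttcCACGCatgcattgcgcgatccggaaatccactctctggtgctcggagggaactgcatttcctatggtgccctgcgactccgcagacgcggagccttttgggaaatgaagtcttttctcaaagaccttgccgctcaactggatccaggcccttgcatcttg
WSB1 held 3 hypoxia cores and no xenobiotic core, PGK1 held 3 and 1, TIPARP 0 and 2, and LYSMD1 0 and 1. In WSB1 the stretch CACGTG was counted on both strands, so its hypoxia cores form 2 separate stretches, beside 3 in PGK1. Among 27305 gene symbols, by the first promoter listed for each, 36.3% held a xenobiotic core and 21.6% a hypoxia core. Among the 7052 tested genes with a single listed promoter the shares were 52.3% and 27.8%, so a match alone sets no gene apart.

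No gene passed an adjusted p of 0.05 for the interaction in edgeR's quasi-likelihood test (0 of 12497, 0%). The smallest adjusted p was 0.92. At an unadjusted p under 0.05, 337 genes (2.7%) lay above additivity and 88 (0.704%) below. Together these are 425 genes in this fit, fewer than the 625 expected at that p if no gene had an interaction. Leaving out 1 library or replicate number gave 146 to 662 above and 49 to 164 below, so not every setting had this shortfall. DESeq2 and limma with sample quality weights also called 0 genes after adjustment. Over the 12497 genes the median interaction was 0.005 on the log2 scale, and 49.2% of genes lay below additivity. Without replicate 6 the median was 0.004 and the share again 49.2%, with 146 genes above and 55 below at an unadjusted p under 0.05.

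The precision of these values sets what they can show. The median standard error of the interaction was 0.27 on the log2 scale. The 95% interval lay within 1 of 0 for 8617 genes (69%) and within 0.5 of 0 for 1930 (15.4%). For the first group an interaction of 1 or more on the log2 scale, in either direction, is outside the interval. At the lowest of 5 expression levels only 187 of 2500 genes were that precise, whereas at the highest 2285 of 2500 were.

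The 6 replicate numbers did not contribute alike. The labels do not say that a number marks a shared culture, so a number here names 4 libraries, which were alike in part. The spread of the interaction over genes was smallest in replicate 5, with an SD of 0.61, and 7.52% of genes lay more than 1 from 0. It was widest in replicate 2 (SD 1.53) and in replicates 1 and 6 (1.40 and 1.35). In replicate 6, 43.3% of genes lay more than 1 from 0. A total of 235 genes lay above additivity in 6 of 6 replicate numbers (1.88% of the genes) and 192 below (1.54%). Random signs alone would give a share close to these on each side, so 6 of 6 does not by itself set a gene apart.

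The median interaction went from above to below additivity as expression increased. The genes were divided into 5 levels of equal number by their mean log2 CPM over all 24 libraries. At the lowest level, where the median gene had 1.62 CPM, the median interaction was 0.26 and 34.6% of genes lay below additivity. At the next 3 levels it was 0.059, 0.002 and −0.021. At the highest level it was −0.056, with 64.1% of genes below additivity. Without replicate 6 the medians ran from 0.30 at the lowest level to −0.063 at the highest, where 69.7% of genes lay below.

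The lean of the lowly expressed genes was not shared by all replicates. At the lowest level the medians of replicates 1 to 6 were −0.37, 1.72, 0.44, 0.60, −0.29 and 0.089. The largest of these belongs to replicate 2, whose hypoxia + DMSO library is the shallowest, and the smallest to replicate 1, whose hypoxia + ITE library is the next shallowest. Without these 2 libraries the median of expression level 1, the lowest, was 0.17. Only 1 of the 2500 genes at this level had 10 or more counts in all 24 libraries. When genes had to meet that minimum, and levels were drawn anew among those that did, the lowest level had a median of 0.017. At the highest level the medians of replicates 1 to 6 were −0.068, −0.17, 0.004, −0.10, 0.042 and 0.020, so 3 of 6 lay below 0. The part of depth in these values was not tested further.

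Across genes, GC content had a Spearman rank correlation of 0.39 with the interaction (0.16 without replicate 6) and expression level one of −0.25, given as descriptions, since all genes share the same 24 libraries. GC content and length of the longest transcript were available for 12098 genes. In 5 bins of equal gene number, from 29.2–40.3% GC to 57.8–83.9% GC, the median interaction was −0.12, −0.077, −0.009, 0.071 and 0.16. The bin lowest in GC had 72% of its genes below additivity and the bin highest in GC had 23.8%. In replicate 6 alone these 2 bins had medians of −1.08 and 1.10. Without replicate 6 the order remained but the ends came to −0.045 and 0.068.

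Genes on 1 side of additivity in every replicate number differed in the same properties. The 235 genes above had a median GC content of 58.2% and a median of 10.4 CPM, and 85 of them were at the lowest expression level. The 192 genes below had a median GC content of 41.2% and a median of 41.6 CPM, and 16 were at the lowest level. Of the 337 genes above additivity at an unadjusted p under 0.05, 190 were in the bin highest in GC. Of the 88 below, 41 were in the bin lowest in GC. With offsets for GC content and length in each library, the numbers at that p were 118 above and 199 below, so the excess of genes above additivity turned into an excess below.

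**Figure D1:**
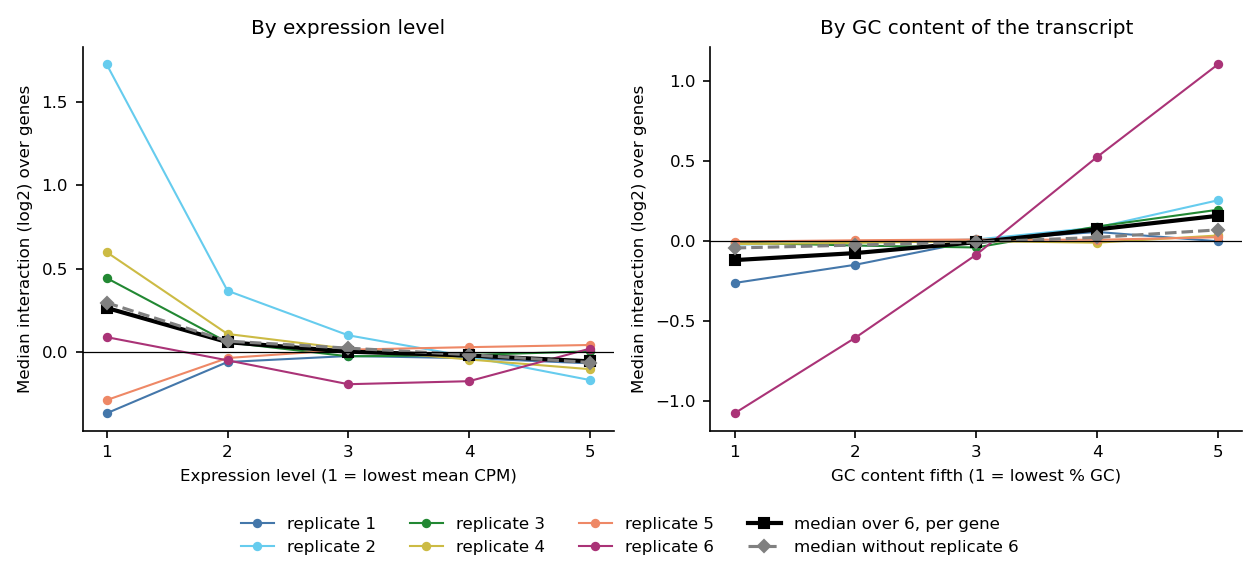
Median interaction over genes (log2) for 5 expression levels (left) and 5 bins of GC content (right), for each replicate number (coloured lines), as the median over the 6 numbers per gene (black squares) and without replicate 6 (grey diamonds). Replicate 2 stands apart at the lowest expression level (1.72) and replicate 6 runs from −1.08 to 1.10 across GC content, while the black line stays between −0.12 and 0.26 in both panels.

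Transcript length went with the interaction in single replicates and nearly cancelled over the 6. From the shortest to the longest of 5 bins, the median over all replicates went from 0.053 to −0.048. In replicate 1 it went from −0.44 to 0.37. In replicate 3 it went the other way, from 0.37 to −0.25, and so it did in replicate 6, from 0.45 to −0.39. The slope of replicate 1 was thus opposite to those of replicates 3 and 6.

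By the cores in their promoters, genes differed little in median. A single listed promoter was available for 7052 genes. The 1070 genes with both cores had a median interaction of −0.016, with 52.5% below additivity. The 2621 with the xenobiotic core only had a median of 0.002 (49.6% below), the 888 with the hypoxia core only −0.008 (51.6%) and the 2473 with neither 0.010 (48%). These are descriptions of the window printed above for 4 genes, and say nothing of binding further away.

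Among functional groups the leanings were small. Of 48 gene lists, 44 had at least 5 members tested. Their medians were below 0 in 34 and below the median of all genes in 35. Without replicate 6 they were below 0 in 32, and 4 lists changed sign. No member of any list passed an adjusted p of 0.05.

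The targets of AHR had a median below additivity, with members on both sides. Of 10 tested members of the AHR target battery, genes known to be induced through AHR, 6 lay below additivity. The median was −0.27, −0.14 without replicate 6, −0.036 without replicate 1 and −0.056 without replicate 5, and 2 members lay below at an unadjusted p under 0.05, beside 0.704% of all genes. Those were TIPARP and SLC7A5, a transporter of large neutral amino acids. On the other side of additivity were 4 members, among them CYP27A1, a mitochondrial sterol hydroxylase (0.29, SE 0.37), and ASB2, a ubiquitin ligase subunit (0.39, SE 0.34).

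TIPARP, whose promoter with 2 xenobiotic cores is printed above, had the lowest value of the battery. With DMSO in normoxia its lowest, median and highest libraries were at 43.2, 46.9 and 54.5 CPM, and with ITE at 110, 124 and 130. The same values in hypoxia were 45.0, 53.7 and 65.5 CPM with DMSO and 39.8, 84.5 and 148 with ITE. The gene lies at chr3:156391024-156424559 on the plus strand (GRCh37). The normoxia groups did not overlap, whereas in hypoxia the lowest ITE library, replicate 6, lay below all 6 DMSO libraries and the highest, replicate 1, above all of normoxia + ITE. The mean difference with ITE was 1.35 on the log2 scale in normoxia and 0.58 in hypoxia. The interaction was −0.68 (SE 0.24, 95% interval −1.18 to −0.18, edgeR adjusted p = 0.92) and lay below 0 in 5 of 6 replicate numbers. Without replicate 6 it was −0.59.

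CYP1B1, a monooxygenase widely used as a readout of AHR, had an interval that included 0. Its mean difference with ITE was 2.499 on the log2 scale in normoxia and 2.28 in hypoxia. The interaction was −0.16 (SE 0.27, 95% interval −0.73 to 0.40), and −0.076 without replicate 6. ALDH1A3, which makes retinoic acid, had an interaction of −0.30 (SE 0.22), below 0 in 5 of 6 replicate numbers. BMF, a pro-apoptotic BCL2 family member at 3.09 CPM, had 0.82 (SE 0.63).

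The machinery of AHR and HIF held 1 gene above additivity at an unadjusted p under 0.05, TCEB2, and 0 below, beside 2.7% and 0.704% of all genes. Of 10 genes of the AHR machinery 8 lay below additivity, with a median of −0.16 (−0.12 without replicate 6). AHR itself had an interaction of −0.47 (SE 0.28), and of its replicate values −2.29 came from replicate 6. Of 14 genes of the HIF machinery 8 lay below, with a median of −0.052. HIF1A had −0.20 (SE 0.17), and −0.065 without replicate 6. TCEB2, the elongin B subunit of the VHL ligase, had 0.95 (SE 0.46) with all libraries and 0.16 without replicate 6.

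Most targets of HIF lay below additivity. Of 28 tested members of the HIF target battery 20 lay below, with a median of −0.12 (−0.084 without replicate 6 and −0.067 without replicate 3). Of the 28, 8 were at the expression level below the highest and 10 at the highest, where 54.8% and 64.1% of all genes lay below. Without replicate 6, 64.3% of the battery lay below, beside 54.6% and 69.7% of all genes at these levels. The median of the battery was below 0 in each of the 6 replicate numbers, from −0.031 to −0.78. At an unadjusted p under 0.05, 3 members lay below (beside 0.704% of all genes) and 0 above. The 3 were BNIP3L, INSIG2 and STC2, a secreted glycoprotein named here after its value was seen. As medians over the replicate numbers the members ran from −0.64 to 1.15, the latter ANGPTL4, a secreted lipase inhibitor at 3.85 CPM whose 95% interval included 0 (edgeR estimate 1.07, SE 0.85).

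BNIP3L, a receptor for the removal of mitochondria, was among the 3. In normoxia its lowest, median and highest libraries were at 59.1, 66.4 and 68.6 CPM with DMSO and 64.2, 71.8 and 87.8 with ITE. In hypoxia they were at 199, 262 and 288 CPM with DMSO and 155, 209 and 255 with ITE. The hypoxia groups overlapped, with replicates 1 and 6 of hypoxia + ITE below every DMSO library. The interaction was −0.48 (SE 0.18, 95% interval −0.84 to −0.12), and −0.34 without replicate 6.

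INSIG2, which holds back sterol synthesis at the endoplasmic reticulum, lay below additivity in 6 of 6 replicate numbers. Its median was 19.6 CPM in normoxia + DMSO, 20.5 in normoxia + ITE, 78.4 in hypoxia + DMSO and 63.7 in hypoxia + ITE, where the libraries ran from 29.3 to 73.6. The interaction was −0.51 (SE 0.22), and −0.40 without replicate 6. P4HA1, a collagen prolyl hydroxylase, also lay below in 6 of 6 (−0.36, SE 0.19), whereas PFKFB4, a regulator of glycolysis, had 0.20 (SE 0.27) and lay below in 3 of 6. NDRG1, a hypoxia-induced gene that the study followed by RT-qPCR, as it did INSIG2 and PFKFB4, had −0.29 (SE 0.20).

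The 14 genes that the study lists as common targets of both factors had a median of −0.47, with 13 below additivity, and a median log2 ratio of −0.16 when additivity was taken on the linear CPM scale. The study chose them as raised by hypoxia and by ITE in these libraries. Both single-treatment groups are subtracted in the interaction, so that choice favours values below 0. The 14 are therefore not independent evidence of a direction. WSB1 had the smallest p among them and among all genes of its expression level below additivity. In normoxia its lowest, median and highest libraries were at 52.0, 54.1 and 58.1 CPM with DMSO and 63.9, 70.3 and 75 with ITE. In hypoxia they were at 81.9, 94.7 and 129 CPM with DMSO and 54.6, 83.7 and 111 with ITE. The gene lies at chr17:25621102-25642952 on the plus strand (GRCh37). ITE thus went with higher values in normoxia, where the groups did not overlap, and with a lower median in hypoxia, where they did. Its replicate values were −1.04, 0.027, −0.67, −0.45, −0.30 and −1.16, and the edgeR estimate was −0.58 (SE 0.18, edgeR adjusted p = 0.92).

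**Figure D2:**
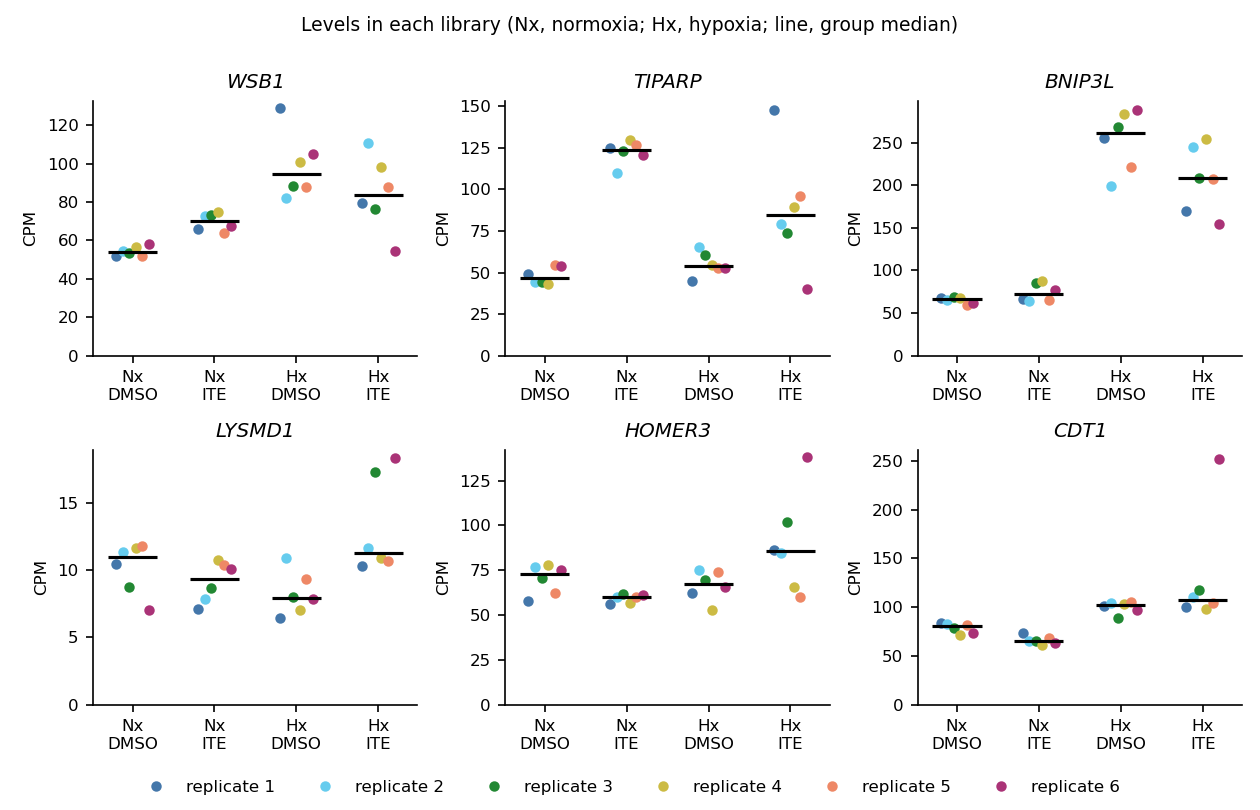
CPM of 6 genes in each of the 24 libraries (points, coloured by replicate number) with the group median (line), for genes below additivity (top) and above (bottom). In WSB1 and TIPARP the normoxia groups separate and the hypoxia groups overlap, and in CDT1 and HOMER3 the highest point is hypoxia + ITE replicate 6 (252 and 138 CPM).

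Glycolysis, which HIF is known to induce, had a median of −0.056 over 19 enzymes and transporters, the same as for the highest expression level as a whole. Below additivity lay 12 of the 19, while the edgeR estimates had a median of 0.024, and without replicate 6 the median was −0.12. PGK1, whose promoter holds 3 hypoxia cores, had the smallest p of the list. In normoxia its lowest, median and highest libraries were at 506, 588 and 644 CPM with DMSO and 564, 594 and 622 with ITE. In hypoxia they were at 1200, 1310 and 1430 CPM with DMSO and 905, 1160 and 1250 with ITE, with overlap. Its interaction was −0.30 (SE 0.14, 95% interval −0.59 to −0.021), and −0.23 without replicate 6. GPI, the isomerase upstream, had 0.50 (SE 0.28), and 0.12 without replicate 6. Hypoxia + ITE replicate 6 was at 1010 CPM for GPI and the other 5 libraries of that group at 320 to 379. The respiratory chain had a median of −0.033 over 79 subunits, of which 43 lay below. Its highest member by p was NDUFS7 of complex I, with 0.96 (SE 0.34) and 0.48 without replicate 6, since hypoxia + ITE replicate 6 had 185 CPM where the other 5 libraries of that group lay between 41.6 and 79.6.

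Mitosis genes mostly lay below additivity. Of 29 genes of the spindle, the kinetochore and mitotic entry 23 lay below (22 without replicate 6), with a median of −0.17 (−0.14), and all 29 intervals lay within 1 of 0. Of the 29, 12 were at the expression level below the highest and 15 at the highest, where 54.8% and 64.1% of all genes lay below. Replicates 1 and 5 had medians above 0 (0.29 and 0.062), and the other 4 had medians from −0.14 to −0.55. TOP2A, the topoisomerase of dividing cells, had −0.39 (SE 0.18) and CDC20, an activator of the anaphase-promoting complex, 0.19 (SE 0.16). The list had a median GC content of 42.3%. With GC and length offsets its median interaction was −0.15 and that of all genes −0.055, and the part of GC content was not tested.

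The members of DNA replication lay on both sides. Of 34 genes 17 lay below, with a median of 0.003. At an unadjusted p under 0.05, RFC1 and RFC3, subunits of the clamp loader, lay below (−0.52, SE 0.19, and −0.48, SE 0.18). CDT1, which licenses replication origins, lay above in 6 of 6 replicate numbers (0.64, SE 0.23). CDT1 ranged from 71.6 to 84.0 CPM in normoxia + DMSO and from 60.6 to 73.5 in normoxia + ITE. It ranged from 89.1 to 105 CPM in hypoxia + DMSO and from 98.3 to 252 in hypoxia + ITE. The next highest library of the last group was at 118 CPM, and without replicate 6 the interaction was 0.35. RFC1 and RFC3 have 41.7% and 38.0% GC and CDT1 has 64.3%, the order in which GC content went with the interaction over all genes.

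Replication-dependent histones lay furthest above additivity. Of 26 tested genes 22 lay above, with a median of 0.88 (0.87 without replicate 6 and 0.45 without replicate 3), and replicate medians were above 0 in 5 of 6. Their mature transcripts mostly lack the poly(A) tail used to select RNA here, and 24 of the 26 were at the lowest expression level. Only 1 had 10 or more counts in all 24 libraries, and its value with that filter was −0.16. HIST1H4C, an H4 histone, ranged from 1.17 to 6.61 CPM in normoxia + DMSO, 0.822 to 4.83 in normoxia + ITE, 0.357 to 4.32 in hypoxia + DMSO and 0.436 to 7.65 in hypoxia + ITE. Libraries of all 4 groups overlapped, and its interaction of 1.57 had an SE of 0.81. Additivity on the linear CPM scale gave the histone list a median log2 ratio of 0.020.

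Lists of lowly expressed genes other than the histones had medians on both sides of 0. Circadian clock genes, with a median of 7.29 CPM, had −0.003, growth factor signalling feedback (16.9 CPM) −0.11 and interferon-stimulated genes (22 CPM) −0.018. The 431 ZNF genes, mostly transcriptional repressors, had a median of 0.055 (0.11 without replicate 6), and 159 and 164 of them were at the lowest and the next level. ZNF490 lay above in 6 of 6 (1.32, SE 0.43) and ZNF470 below in 5 of 6 (−1.17, SE 0.49). Noncoding RNAs named as snoRNA hosts, antisense or intergenic transcripts had 0.11 over 69 genes. Renal lineage factors had 0.22 over 9 genes (0.090 without replicate 6), led by LHX1 at 1.43 CPM (1.27, SE 0.74).

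Lists of translation and RNA handling had medians near or below 0. Cytosolic ribosomal proteins had 63 of 80 below additivity with a median of −0.084, and 71 of 80 with −0.13 without replicate 6. Of the 80, 76 were at the highest expression level, where 64.1% of all genes lay below with a median of −0.056. Without replicate 6 the values of that level were 69.7% and −0.063. Their edgeR estimates had a median of 0.010, and the replicate medians were −0.55, −0.25, 0.42, −0.11, −0.043 and 0.68. The replicate medians of the list thus lay on both sides of 0. Without the 2 shallowest libraries the median of the cytosolic ribosomal proteins was 0.13. Splicing factors had 49 of 68 below (−0.096) and nucleoporins 19 of 27 (−0.11). At the highest expression level were 51 of the 68 and 11 of the 27. Mitochondrial ribosomal proteins (0.017), aminoacyl-tRNA synthetases (−0.012) and the proteasome (−0.010) lay near 0.

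Among signalling lists, NF-kB and cytokine genes had 10 of 17 below with a median of −0.15, and replicate medians from −0.079 to −0.41. CXCL2, a neutrophil chemokine at 1.95 CPM, had the smallest p among them (−1.23, SE 0.52). Amino acid transporters had 11 of 15 below (−0.15), with SLC7A5 at −0.34 (SE 0.16) and SLC43A2, another carrier of neutral amino acids, at 0.73 (SE 0.38). Interferon-stimulated genes were split, 12 of 22 below, with ISG15, a ubiquitin-like modifier, at 0.97 (SE 0.36) and IFIT2 at −0.48 (SE 0.29). DDIT4, an inhibitor of mTORC1, had −0.39 (SE 0.22), while the mTORC1 regulators as a list had 17 of 25 above.

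**Figure D3:**
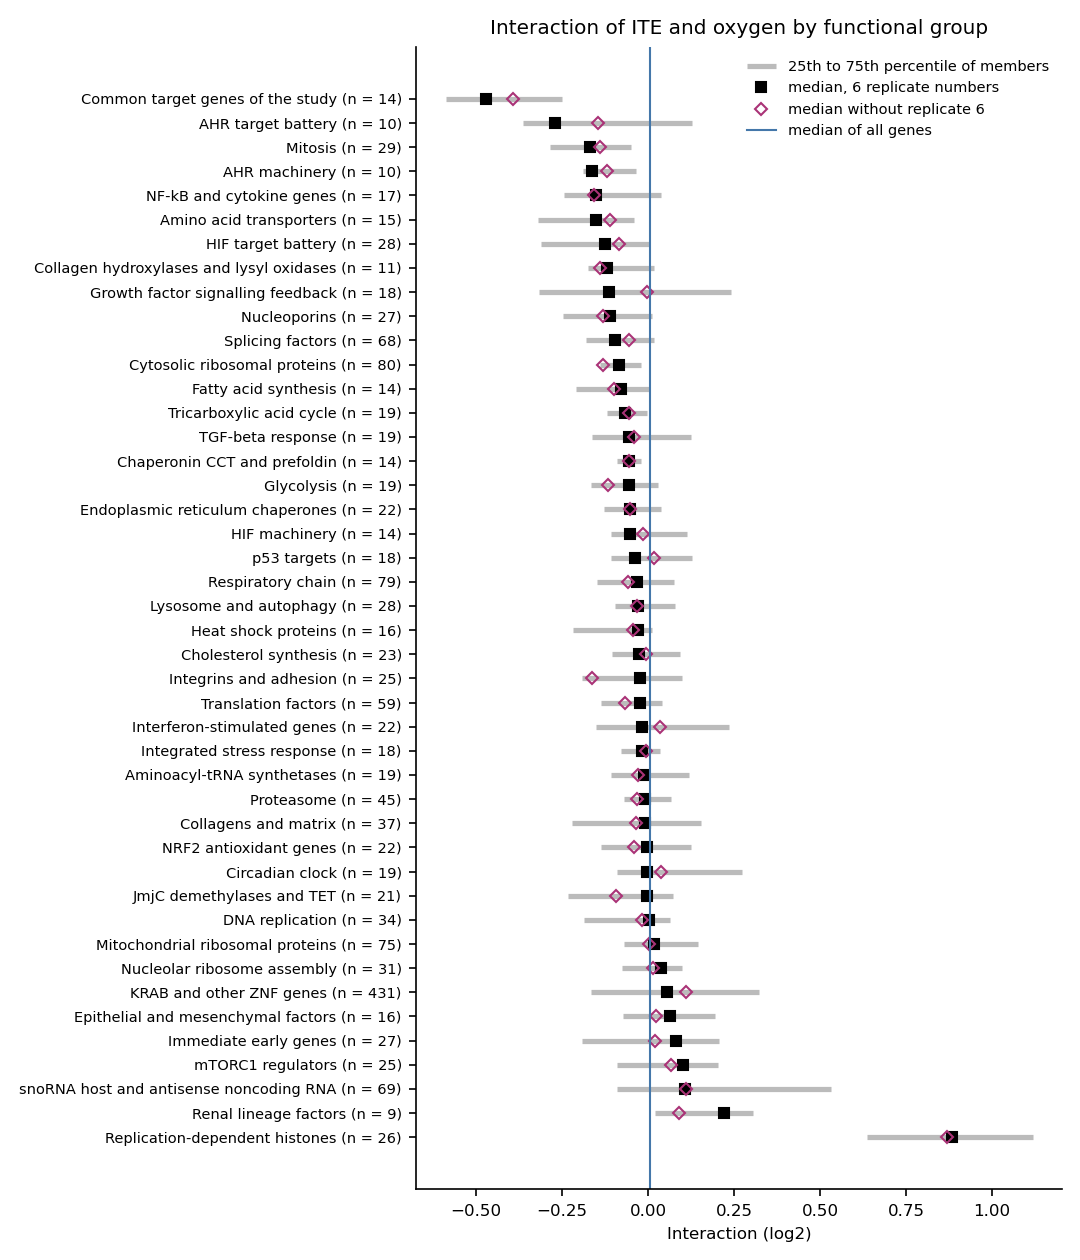
Median interaction (log2) of 44 functional groups with all replicates (black squares) and without replicate 6 (open purple diamonds), with the 25th to 75th percentile of the members (grey bars) and the median of all genes (vertical line, 0.005). Most squares lie between −0.17 and 0.11, with the common targets (−0.47), the AHR battery (−0.27), the renal factors (0.22) and the histones (0.88) outside.

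The genes with the smallest p in 6 of 6 replicate numbers were described singly, 10 in each direction. Above additivity they were CROCCP3, ARHGAP44, FCGRT, LYSMD1, ADCK4, ZNF490, CLEC11A, DNAH5, FOXL1 and ZBTB48, with interactions from 0.70 to 2.31. Of these, 6 were at the lowest expression level. CROCCP3 is a pseudogene of rootletin whose reads may be shared with near-identical copies. ARHGAP44 ranged from 1.27 to 3.43 CPM in normoxia + DMSO, 0.274 to 1.93 in normoxia + ITE, 0 to 1.54 in hypoxia + DMSO and 1.56 to 3.74 in hypoxia + ITE. Its hypoxia groups did not overlap, at levels near or under the 3.90 CPM that 3 counts stand for in the shallowest library. Such a floor covers counting error only.

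LYSMD1 had the narrowest range of the 10 over the replicates. Its replicate values were 1.23, 0.64, 1.12, 0.74, 0.38 and 0.70. In normoxia its lowest, median and highest libraries were at 7.01, 11 and 11.8 CPM with DMSO and 7.15, 9.38 and 10.8 with ITE. In hypoxia they were at 6.43, 7.92 and 10.9 CPM with DMSO and 10.3, 11.3 and 18.4 with ITE. ITE went with a higher median in hypoxia and a lower 1 in normoxia, with overlap at both oxygen levels. The interaction was 0.87 (SE 0.26, 95% interval 0.33 to 1.41, edgeR adjusted p = 0.92) and 0.87 without replicate 6. Its transcript has 50% GC, beside a median of 47.6% over all genes, and the gene lies at chr1:151132224-151138424 on the minus strand (GRCh37).

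HOMER3, a scaffold protein, had the smallest p above additivity at the level below the highest. It ranged from 58.0 to 77.6 CPM in normoxia + DMSO and from 56.0 to 61.8 in normoxia + ITE. It ranged from 52.9 to 75.1 CPM in hypoxia + DMSO and from 60.0 to 138 in hypoxia + ITE. The interaction was 0.67 (SE 0.21), and 0.49 without replicate 6, with replicate 5 below 0. ADCK4, a protein of coenzyme Q synthesis, had 1.05 (SE 0.34) and 0.59 without replicate 6, where hypoxia + ITE replicate 6 was at 81.6 CPM and the other 5 at 21.7 to 29.1.

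Below additivity the 10 were CCPG1, RFC3, ENOX2, CHML, TMF1, SYTL2, RAB14, CTSL2, BBS2 and OXSM, with interactions from −0.48 to −1.06. They were more highly expressed than those above, with only CTSL2, a lysosomal protease, at the lowest level. CCPG1 encodes a receptor for the removal of endoplasmic reticulum, CHML a Rab escort protein, SYTL2 a Rab effector and RAB14 a Rab GTPase. No enrichment of a role was tested.

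CCPG1 had replicate values of −0.45, −0.44, −0.69, −0.28, −0.31 and −1.11. In normoxia its lowest, median and highest libraries were at 32.8, 39.1 and 41.7 CPM with DMSO and 40.3, 44.8 and 53.9 with ITE. In hypoxia they were at 40.8, 44.9 and 54.0 CPM with DMSO and 24.1, 38.7 and 48.5 with ITE. The order of the medians was thus turned by oxygen, with overlap at both levels. CHML had the widest gap between replicates. Hypoxia + ITE replicate 6 was at 11.5 CPM and the other 5 libraries of the group at 33.2 to 55.3, so that its interaction was −0.72 (SE 0.29) with replicate 6 and −0.47 without. Replicate 6 gave the lowest of the 6 values in 8 of the 10 genes, and the next to lowest in ENOX2 and BBS2.

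**Figure D4:**
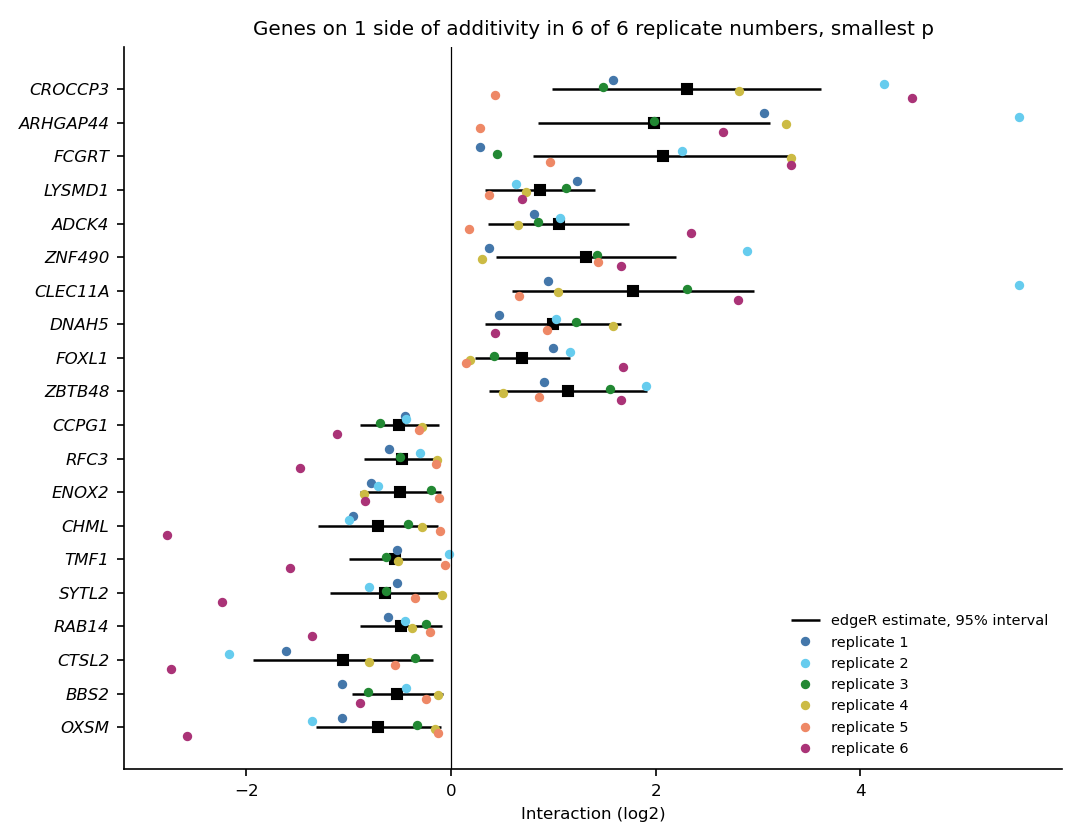
Interaction (log2) of the 10 genes per direction with the smallest p among genes on 1 side of additivity in 6 of 6 replicate numbers, as the 6 replicate values (coloured points) and the edgeR estimate with its 95% interval (black). Replicate 6 is the lowest point for CHML (−2.78) and SYTL2 (−2.24), and replicate 2 the highest for ARHGAP44 (5.55).

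Additivity was also taken on the linear scale, as the mean CPM of hypoxia + ITE over the sum of the control mean and both single differences. For the 12429 genes where that sum was above 0, the median log2 ratio was 0.022 and 47.5% lay below, beside 0.005 and 49.2% on the log2 scale.

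The summed level of markers of other cell types over the libraries was 0 to 4.64 CPM for 7 endothelial markers and 8.19 to 35.3 for 11 leukocyte markers, mainly CD68. It was 18.6 to 113 for 8 fibroblast markers, mainly PDGFRB. In bulk RNA, fewer cells with a transcript and less transcript per cell cannot be told apart.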

How the data were processed

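The authors sequenced directional libraries of polyadenylated RNA, trimmed reads with Trim Galore 0.3.3, aligned them to GRCh37 with HISAT2, excluded fragments that did not map uniquely with Picard 2.0.1 and counted reads per UCSC-defined gene with HTSeq 0.5.4p3 in intersection-strict mode, and deposited raw counts. Groups and replicate numbers were taken from the sample labels. From the counts, log2 CPM (prior count 2, TMM factors) gave the interaction per replicate number, and edgeR 4.0.16 (R 4.3.3, quasi-likelihood, all 24 libraries, Benjamini-Hochberg over 12497 genes) tested it. DESeq2 1.42.0 and limma 3.58.1 were alternatives, with other filters, scalings, GC and length offsets (splines with 5 degrees of freedom, 96.8% of genes with both values), a replicate block and omission of libraries. The fitting code was tested on simulated data. Genes are named as the 10 smallest p per direction on 1 side in every replicate number (mean of at least 1 CPM), the smallest p per direction in each list and expression level, and the genes the study followed. Group members and lists were chosen with earlier results of these data known. The 6 replicates were independent by the methods of the study, and no pair of a group agreed within sampling noise.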

Additional observations from a re-analysis of the deposited data

Results flagged for a closer look

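A sample was singled out where its gap to the nearest of the other 5 exceeded Dixon's 95% critical value, as a share of the range of the group. Of 38 groups of 6 examined, 10 did so. For independent groups chance would give 1.9. The groups examined shared libraries, and the genes that stood apart had been picked by p, so these numbers cannot be compared. Total counts stood apart in normoxia + ITE replicate 5 (48357647), hypoxia + DMSO replicate 5 (37995687) and hypoxia + ITE replicate 4 (87404330), each the deepest library of its group.

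The other 7 belonged to replicate 6. Hypoxia + ITE replicate 6 had a median absolute deviation from its group of 0.646 on the log2 scale and a rank correlation of its deviations with GC content of 0.635. In that replicate number the interaction was −0.175 as the median of expression level 4, −1.47 for RFC3, −2.78 for CHML, −2.24 for SYTL2 and −1.36 for RAB14. The 4 genes have 37.2% to 42.4% GC. The part of GC content in these values was not tested gene by gene.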

How the results depend on the processing

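Under every setting tried, 0 genes passed an adjusted p of 0.05. Of 1828 values of 44 named genes, 1805 kept their sign. Beside 337 genes above additivity at an unadjusted p under 0.05 and 88 genes below additivity at an unadjusted p under 0.05, DESeq2 gave 134 below, upper-quartile factors 56 below and total counts alone 34 below. Without a filter on low counts there were 737 above and 162 below, with 40.9% of genes below additivity. With 10 or more counts in all 24 libraries there were 223 and 41, with 133 above and 111 below in every replicate number. GC and length offsets gave 118 above and 199 below, 126 above in every replicate number, a median of −0.055 and 59.8% below. Limma with sample weights gave 626 and 241, and without the 2 shallowest libraries 506 lay above. Leaving out 1 library or replicate number gave 146 to 662 above and 49 to 164 below, medians of −0.004 to 0.014, 48.1% to 50.7% of genes below, and 23 to 36 lists below the median of all genes. The lowest counts came without replicate 6 (146 above, 55 below) and without replicate 2 (49 below, 23 lists), and the highest without hypoxia + ITE replicate 5 (662 above, 160 below) or 4 (657 and 164). Without hypoxia + ITE replicates 1, 2 and 6 in turn there were 555, 545 and 174 above, without its replicate 3 155 below, and without normoxia + DMSO replicates 1 and 2 54 and 55 below. The cause was not tested. Depth limits the lowest expression level most.

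Same-numbered libraries were alike in part. Correlations of deviations between them ran from −0.129 to 0.402, and not every pair exceeded 0.1. Their mean was above 0 in each pair of groups, from 0.026 to 0.166. The labels do not say that a number marks a shared culture, so the main test had no replicate block. In 2 to 5 of 6 libraries per pair of groups, the best correlation was with the library of the same number. For each pair of groups this is more than random matching would give on average. With the replicate block, 314 genes lay above and 119 below at an unadjusted p under 0.05, with 0 after adjustment. With the block and the offsets there were 145 above and 283 below.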
